A study of Mus musculus with 6 samples.

Results

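The CCN proteins, the thrombospondins, tenascin C and periostin are matricellular proteins, which are secreted into the extracellular matrix and act there on cells rather than as its load-bearing fibres. The 10 genes described here are Ccn1 to Ccn5, Thbs1 to Thbs3, Tnc and Postn. They were chosen by name, through the Ensembl identifiers that carry these symbols or the older CCN names Cyr61, Ctgf, Nov, Wisp1 and Wisp2, from 57180 identifiers in the count table. All 10 were found, 8 had enough counts to be tested, and Ccn2 and Thbs3 were listed at 0 in every library.

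RNA came from mouse calvaria-derived cells, osteoblast-lineage cells taken from the flat bones of the skull, kept in osteogenic medium with ascorbate and 4 mM β-glycerophosphate. The 3 FasL KO libraries came from cells of B6Smn.C3-Faslgld/J mice, which are homozygous for the gld allele, a point mutation of the Fas ligand gene Fasl rather than a deletion. The 3 wt libraries came from C57BL/6 cells. The labels give no age or sex of the mice and no day of RNA isolation for these 6 libraries, and do not say whether the libraries of a group are separate animals or cultures, so the p-values measure only the spread between libraries, which may be technical. A parallel arm given recombinant Fas ligand on day 14 for 72 h is described by the submitters but was not analysed here. The question put to the data was which matrix genes differ in osteoblast cultures without functional Fas ligand.

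In bone, matricellular proteins are best known for tuning how osteoblasts and their precursors respond to growth factors and to the matrix they sit on. CCN proteins bind integrins and several growth factors, and Ccn1 and Ccn2 are classical targets of the mechanically regulated co-activators YAP and TAZ. Thrombospondin 1 activates latent TGF-β and restrains blood vessel growth. Periostin, a protein of the periosteum and other collagen-rich tissues, and tenascin C both bind integrins and matrix proteins.

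The FasL KO libraries held 4048258 to 5245546 counts and the wt libraries 2011173 to 3105322, so every FasL KO library was deeper than every wt library. Levels are CPM, counts relative to the size of the library, scaled between libraries by TMM. Fasl itself was listed at 0 in all 6 libraries, and since gld is a point mutation its level checks neither label. The receptor gene Fas had 29.9 ± 3.54 CPM in FasL KO and 30.6 ± 8.62 CPM in wt (SD, n = 3 each). Of 11 osteoblast markers, 8 were tested, 6 being higher and 1 lower in FasL KO. The summed level of the 11 was 62827 to 69361 CPM in FasL KO and 16675 to 24426 CPM in wt. Most of that sum was Col1a1 and Col1a2, with means of 26922 and 36061 CPM in FasL KO and 7559 and 11229 CPM in wt. Alpl, the marker that was lower, had means of 47.8 CPM in FasL KO and 220 CPM in wt. Bglap, Spp1 and Sp7 had only 1, 4 and 20 counts over all 6 libraries. Of 19 macrophage markers, 9 of 10 tested were higher and 1 lower in FasL KO, against 9.74% higher and 7.69% lower over all genes tested. Most of the 9 had few or no counts in wt. They had enough counts to be tested only through FasL KO, so being higher was largely built in. The summed level of all 19 was 2395 to 6599 CPM in FasL KO and 253 to 429 CPM in wt. Cd14, the marker that was lower, made up 68.5 to 137 CPM of that sum in FasL KO and 235 to 305 CPM in wt. Without Cd14, a choice made after its values were seen, the sum was 2325 to 6463 CPM in FasL KO, of which Lyz2 held 1767 to 4944 CPM, and 3.26 to 124 CPM in wt. Adgre1, Aif1, Csf1r, Ctss, Fcer1g, Spi1 and Tyrobp were listed at 0. The part of such cells in the differences described here was not tested, and in bulk RNA fewer cells of a type and less RNA per cell cannot be told apart.

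Among these 10 genes, the number of counts went with the make-up of the 3′ end. The final 300 bases of the principal transcript (GENCODE M21, GRCm38) lie in a single annotated transcript for Ccn1, Ccn3, Ccn4, Ccn5, Thbs1 and Thbs2, and these 6 genes held 3654 to 33233 counts over the 6 libraries. The ends of Ccn2, Thbs3, Tnc and Postn are shared between annotated transcripts, and these 4 genes held at most 517 counts each. Among protein-coding genes of the table, 57.3% of those with a shared end and 37.8% of those with a single-transcript end were listed at 0. The reason for this difference was not tested. The 0 of Ccn2 and Thbs3 is taken here as an entry of the table and not as a statement that the transcript is missing. Levels of Tnc and Postn may cover only part of their transcripts.

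Promoter sequences were available from RefSeq (GRCm38.p6) for 5 of the 10 genes, Ccn1, Thbs2, Thbs3, Tnc and Postn, as 7 windows of 250 bases before an annotated start. Ccn1 and Postn are printed because they are the genes of these 5 whose level changed, and they changed in opposite directions. The first line is chr3:145649986-145650235 on the minus strand, and the second is chr3:54360857-54361106 on the plus strand, the window before the Postn start closest to the GENCODE one. Both read 5′ to 3′ towards the start, and capitals mark a motif match.
Ccn1: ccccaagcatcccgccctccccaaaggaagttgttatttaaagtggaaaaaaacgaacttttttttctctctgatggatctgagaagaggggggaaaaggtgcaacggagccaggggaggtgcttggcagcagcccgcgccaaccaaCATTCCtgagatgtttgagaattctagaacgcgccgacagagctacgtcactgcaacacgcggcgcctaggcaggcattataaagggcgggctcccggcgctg
Postn: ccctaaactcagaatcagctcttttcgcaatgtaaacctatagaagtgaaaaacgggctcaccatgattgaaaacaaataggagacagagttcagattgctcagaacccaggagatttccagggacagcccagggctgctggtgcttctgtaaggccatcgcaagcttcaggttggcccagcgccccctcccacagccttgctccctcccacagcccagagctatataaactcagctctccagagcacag

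Each window was searched on both strands for GGAATG, the core that TEAD factors, the DNA-binding partners of YAP and TAZ, recognise, for TGANTCA (AP-1), for the CArG box of SRF and for TGTGGT (RUNX factors). The 1 match in the 7 windows is the CATTCC of Ccn1, which is GGAATG on the other strand and begins 103 bases before the start. It overlaps no other motif searched. Of 32851 promoter windows of the same length, 12.6% hold GGAATG, 6.75% TGANTCA, 1.47% a CArG box and 14.0% TGTGGT, so the match is a common one. A match is a run of letters and not a shown binding site.

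Of the tested genes, 5 changed between the groups. Ccn3 and Postn were higher in FasL KO than in wt by 14.8-fold and 11.3-fold, and Thbs1, Ccn1 and Ccn4 were lower by 4.35-fold, 1.64-fold and 1.53-fold. The differences of Ccn5, Thbs2 and Tnc did not pass the test. Genes were tested with edgeR's quasi-likelihood test, 8692 in all, and called at a Benjamini-Hochberg adjusted p of 0.05. The test called 17.4% of all tested genes, 9.74% as higher and 7.69% as lower in FasL KO, against 5 of the 8 tested genes here. The 2 shares are not matched for abundance. Ccn1, Ccn3, Ccn4, Ccn5, Thbs1 and Thbs2 stood at percentiles 88.6 to 99.4 of abundance among the tested genes. The genes were also chosen with earlier results of these data known. The 8 are not the whole set of 10, and Postn was counted mainly in the group where it was high. Groups did not overlap for 6 of the 8 and for 33.3% of all tested genes.

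**Figure D1:**
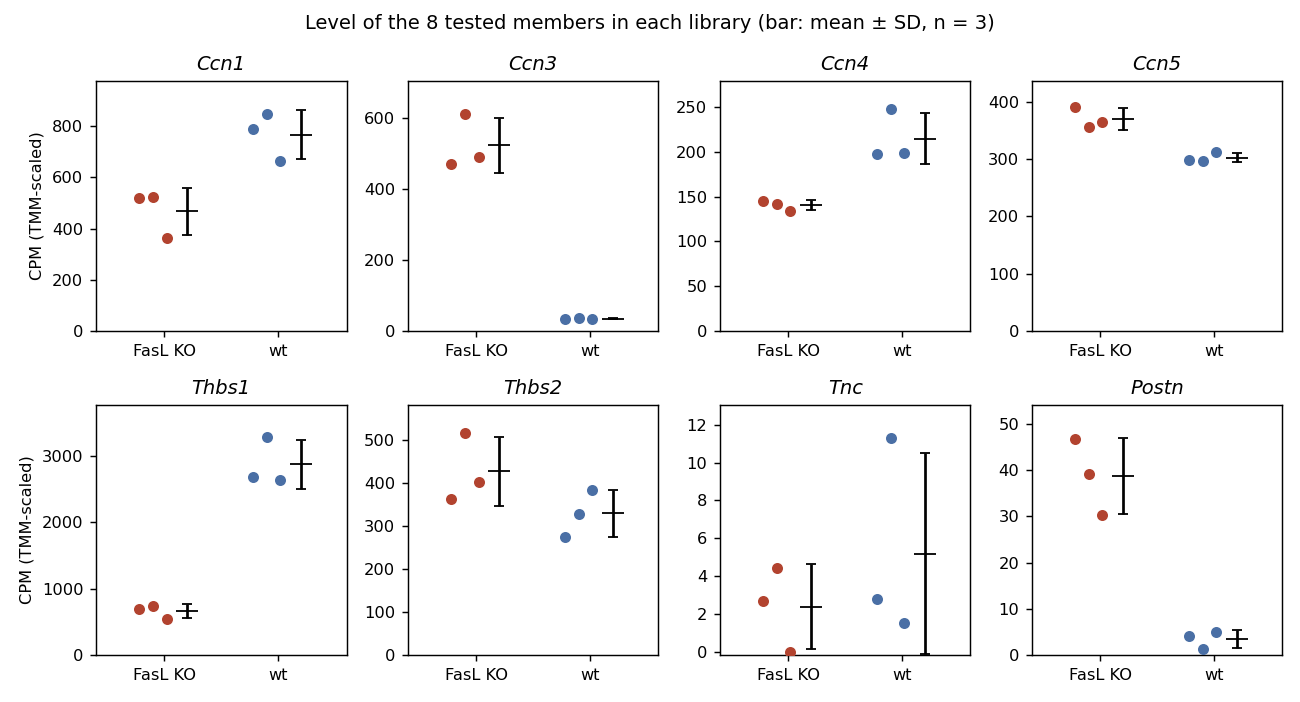
Level of each of the 8 tested genes in CPM (vertical axis, TMM-scaled, a scale of its own per gene) in the 3 FasL KO libraries (red points) and the 3 wt libraries (blue points), with the mean and SD of each group in black. Ccn3 and Postn lie higher and Thbs1, Ccn1 and Ccn4 lower in every FasL KO library than in any wt library, and Thbs2 and Tnc overlap.

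Ccn3 (ENSMUSG00000037362, GRCm38 chromosome 15, 54745702 to 54754039, plus strand) had the largest estimated increase of the 8 tested genes, with an interval that overlaps that of Postn. Its protein, first named NOV, is known as a brake on BMP signalling and on osteoblast differentiation. It had 1895, 2334 and 2398 counts in the FasL KO libraries, against 74, 118 and 112 in the wt libraries. As levels these were 469, 610 and 488 CPM in FasL KO and 34.5, 37.0 and 34.1 CPM in wt. The lowest FasL KO library stood far above the highest wt library, and the wt libraries differed by little among themselves. The log2 fold change was 3.89 ± 0.16 (SE; 95% interval 3.55 to 4.23; edgeR adjusted p = 6.07e-10), which is the 14th smallest p of the 8692 genes.

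Ccn1 (ENSMUSG00000028195, chromosome 3, 145646976 to 145649981, minus strand) encodes an integrin-binding protein whose gene responds within minutes to serum, growth factors and stretch. Its level was 519, 523 and 362 CPM in FasL KO, against 789, 848 and 662 CPM in wt. All FasL KO libraries lay below all wt libraries, with FasL KO 3 the lowest. It fell by 0.71 ± 0.15 log2 units (SE; edgeR adjusted p = 0.00354), with a 95% interval of −1.04 to −0.39.

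Ccn4 (ENSMUSG00000005124, chromosome 15, 66891320 to 66923201, plus strand), known as a Wnt-induced gene of osteoblast precursors and fracture repair, went the same way. Its level was 145, 142 and 134 CPM in FasL KO, against 198, 248 and 199 CPM in wt. The groups did not overlap, and wt 2 stood highest. The log2 fold change was −0.61 ± 0.15 (SE; edgeR adjusted p = 0.00844), with a 95% interval of −0.93 to −0.30. It was −0.50 without wt 2, where the call held with an edgeR adjusted p = 0.0417, the highest over the 14 alternatives tried (lowest 0.00111).

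Ccn5 (ENSMUSG00000027656, chromosome 2, 163820861 to 163833146, plus strand) is the family member whose protein lacks the C-terminal domain of the others. It stood at 391, 355 and 363 CPM in FasL KO, against 298, 297 and 312 CPM in wt. The groups did not overlap, but the log2 difference of 0.29 ± 0.12 (SE; 95% interval 0.04 to 0.54) had an edgeR adjusted p = 0.114. Before adjustment its p was 0.0259.

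Ccn2 (ENSMUSG00000019997, chromosome 10, 24595442 to 24598683, plus strand), which encodes connective tissue growth factor, had no count in any library. The antisense gene Gm15270, which overlaps it, had 18 counts in sum. Neither the level of Ccn2 nor a difference between the groups can be read from this table.

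The sum of the CCN counts overlapped between the groups, while the shares of Ccn1, Ccn3 and Ccn4 in it did not. CCN genes took 0.146%, 0.154% and 0.126% of all counts in FasL KO, against 0.141%, 0.147% and 0.130% in wt. Within that sum, Ccn3 made up 30.8%, 37.4% and 36.2% in FasL KO, against 2.62%, 2.59% and 2.83% in wt. Shares of this kind need no scaling between libraries, and about 1 tag per molecule is read from a 3′ library, but they leave out Ccn2. They are also tied to each other, so the larger share of Ccn3 by itself makes the shares of Ccn1, Ccn4 and Ccn5 smaller.

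Ccn1 made up 31.0% ± 3.72 of the CCN counts in FasL KO and 58.0% ± 2.71 in wt (SD, n = 3 each). The share of Ccn4 was 9.39% ± 0.62 in FasL KO and 16.3% ± 1.18 in wt. For Ccn5 the shares were 24.8% ± 2.70 in FasL KO and 23.1% ± 2.56 in wt, and they overlapped between the groups.

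The ratio of Ccn3 to Ccn1 counts put this in 1 value per library. It was 0.903, 1.17 and 1.35 in FasL KO, against 0.0437, 0.0436 and 0.0515 in wt. The log2 ratio of Ccn3 to the sum of Ccn1 and Ccn2, with 0.5 added to each, averaged 0.17 ± 0.29 in FasL KO and −4.43 ± 0.14 in wt (SD, n = 3 each). The difference of 4.60 had p = 0.1 in a two-sided exact permutation test, the smallest p that 3 against 3 libraries can give. As Ccn2 had no count, this is in effect the ratio to Ccn1 alone. Ccn3 and Ccn1 already separated the groups in opposite directions, so the outcome of that test was fixed and adds no support.

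**Figure D2:**
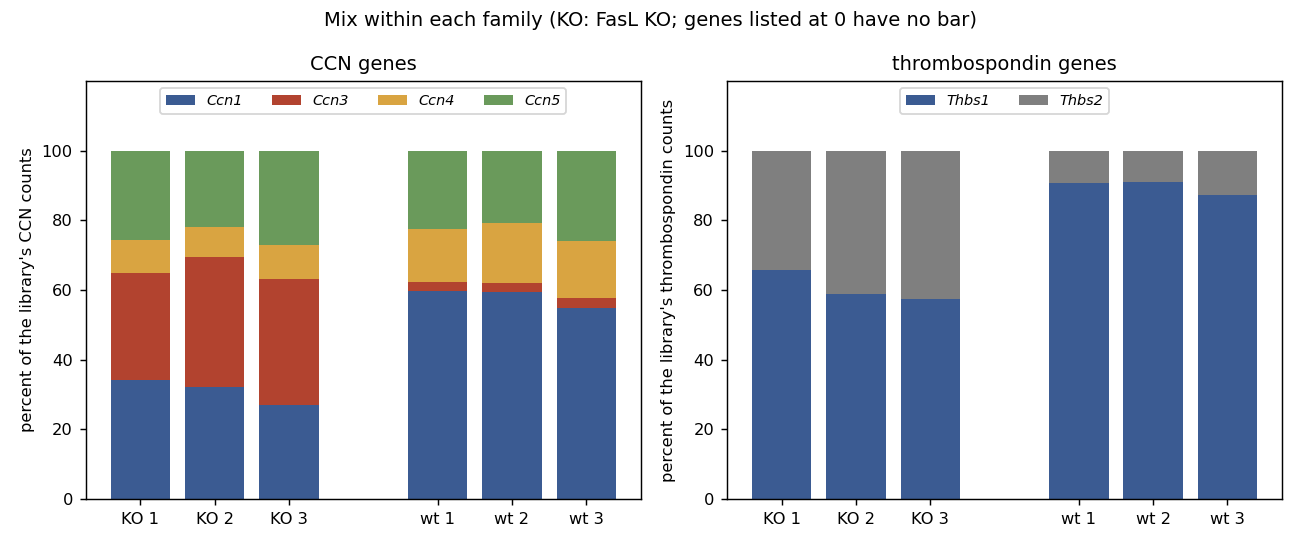
Percent of each library's CCN counts (left) and thrombospondin counts (right) held by each gene, in stacked bars that start at 0, for FasL KO 1 to 3 and wt 1 to 3. The red Ccn3 segment is 30.8% to 37.4% in FasL KO and 2.59% to 2.83% in wt. The grey Thbs2 segment is 34.2% to 42.6% in FasL KO and 9.08% to 12.7% in wt. As Thbs3 has no count, that segment is what Thbs1 leaves, and the level of Thbs2 did not pass the test.

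Among the thrombospondins, Thbs1 (ENSMUSG00000040152, chromosome 2, 118111876 to 118127133, plus strand) was the gene that passed the test. It had 2819, 2835 and 2657 counts in FasL KO, against 5755, 10498 and 8669 in wt, although the FasL KO libraries were the deeper ones. The levels were 697, 741 and 541 CPM in FasL KO, against 2682, 3292 and 2640.0 CPM in wt. No FasL KO library came near the lowest wt library. It fell by 2.12 ± 0.13 log2 units (SE; 95% interval −2.41 to −1.84; edgeR adjusted p = 4.96e-08). An antisense gene that overlaps it, Gm29233, had 0 counts.

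Thbs2 (ENSMUSG00000023885, chromosome 17, 14665500 to 14694235, minus strand), like Thbs1 a trimeric thrombospondin and known for its part in collagen fibril assembly and in restraining vessel growth, showed no fall. Its level was 362, 518 and 402 CPM in FasL KO, against 275, 329 and 385 CPM in wt. The groups overlapped, with FasL KO 1 below wt 3. The log2 difference was 0.37 ± 0.16 (SE; 95% interval 0.03 to 0.71; edgeR adjusted p = 0.141). Before adjustment its p was 0.0345. Over the alternatives it ran from 0.19 without FasL KO 2 to 0.50 without wt 3, and none called it.

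Thbs1 and Thbs2 together took 0.102%, 0.119% and 0.0883% of all counts in FasL KO, against 0.316%, 0.372% and 0.325% in wt. There were 1.93, 1.43 and 1.35 counts of Thbs1 for each count of Thbs2 in FasL KO, against 9.74, 10.0 and 6.86 in wt. The groups overlapped neither in this sum nor in this ratio, which were not tested. Set against Ccn1, which also fell, there were 1.42 ± 0.08 counts of Thbs1 per count of Ccn1 in FasL KO and 3.76 ± 0.31 in wt (SD, n = 3 each).

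Thbs3 (ENSMUSG00000028047, chromosome 3, 89215180 to 89226837, plus strand), a pentameric thrombospondin of cartilage and bone, was listed at 0 in all libraries. Its 3′ end lies over Mtx1, a gene on the other strand that had 73 counts in sum. No source used here gives the strand setting of the counting, so reads from this shared stretch cannot be assigned.

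Postn (ENSMUSG00000027750, chromosome 3, 54361109 to 54391037, plus strand) rose in FasL KO on low counts. It had 189, 150 and 149 counts in FasL KO, against 9, 4 and 16 in wt, or 46.8, 39.2 and 30.3 CPM in FasL KO against 4.19, 1.25 and 4.87 CPM in wt. The groups were well apart, and the wt levels rest on 4 to 16 counts per library. The log2 fold change was 3.50 ± 0.47 (SE; 95% interval 2.48 to 4.52; edgeR adjusted p = 8.82e-05). GENCODE M21 lists 9 transcripts of Postn, and its end is shared between at least some of them. The value may thus follow part of the transcripts, and whether their mix differed was not tested.

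Tnc (ENSMUSG00000028364, chromosome 4, 63959785 to 64047015, minus strand), which encodes a large glycoprotein of developing and healing tissues, was close to the floor. It had 11, 17 and 0 counts in FasL KO, against 6, 36 and 5 in wt. A count of 0 allows up to 0.611 CPM in FasL KO 3, by counting error alone. The log2 difference of −1.14 ± 1.21 (SE; 95% interval −3.74 to 1.47; edgeR adjusted p = 0.633) turned to 0.15 without wt 2, so no direction can be given at this depth. The overlapping gene 8030451A03Rik on the other strand had 9 counts, all in FasL KO 2.

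**Figure D3:**
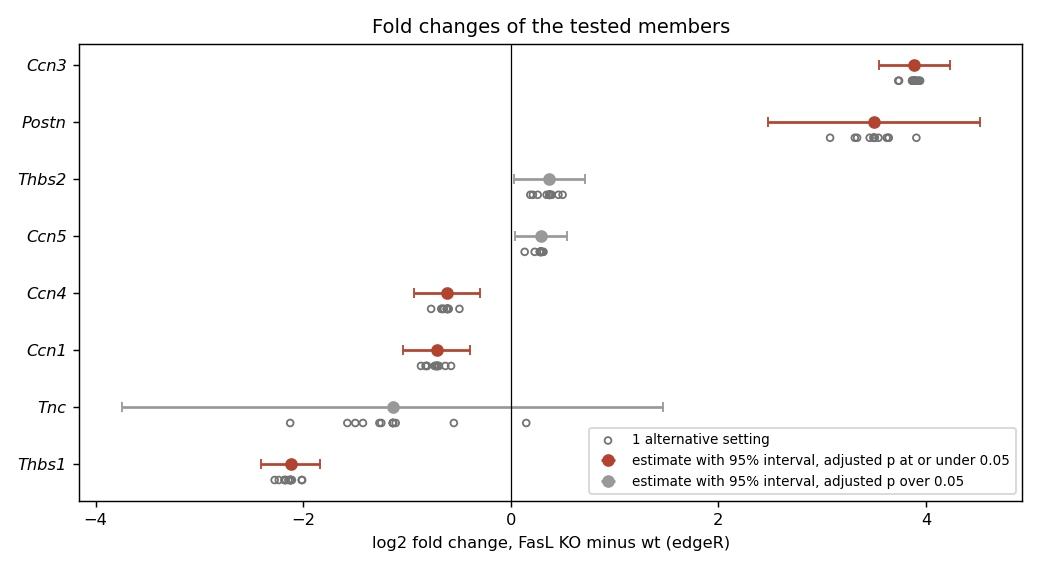
Log2 fold change of FasL KO over wt (horizontal axis) for the 8 tested genes, with 95% intervals, in red where the edgeR adjusted p was at or under 0.05 and in grey otherwise. Open circles are the same value under each alternative setting. Ccn3 and Postn stay above 3 and Thbs1 at or below −2.01 throughout, and the Tnc values lie on both sides of 0.

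Other matricellular and related glycoprotein genes went both ways. Of 26, 11 were tested, 4 rose and 2 fell, with a median log2 fold change of 0.55 over the 11, against 0.02 over all genes tested. That median was 0.14 without FasL KO 2, 0.32 without wt 1 and 1.08 with no filter on low counts. Of all genes tested, 9.74% were called higher and 7.69% lower in FasL KO. Of the 11 genes, 1 had no count in 1 of the groups. That gene and Sparcl1 passed the filter mainly through the group where they were high, so their direction was largely built in. Mgp, an inhibitor of mineralization, rose by 1.07 ± 0.09 log2 units (edgeR adjusted p = 5.98e-07). Sparcl1, a relative of osteonectin, rose by 4.94 ± 0.69 (edgeR adjusted p = 0.000117) on 0 to 10 counts per wt library, and Fstl1 rose by 0.55 ± 0.09 (edgeR adjusted p = 0.000437). Spon1, whose product carries thrombospondin-type repeats, fell by 1.49 ± 0.31 (edgeR adjusted p = 0.00313). The fibulin gene Fbln1 was the other that fell, and without FasL KO 3, wt 2 or wt 3 the list had 1 gene that fell.

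Receptors of these proteins went both ways. Of 20, 14 were tested, 3 rose and 1 fell, where 17.4% of all genes tested were called in either direction, and the median was −0.01. Itgb3, the integrin subunit through which several matricellular proteins including Ccn1, thrombospondin 1 and periostin bind cells, had 8.09 ± 3.75 CPM in FasL KO and 71.5 ± 20.4 CPM in wt (SD, n = 3 each). It fell by 3.13 ± 0.37 log2 units (edgeR adjusted p = 2.46e-05). Calr, a chaperone that also serves thrombospondin at the cell surface, rose by 1.13 ± 0.09 (edgeR adjusted p = 7.48e-07) and the laminin receptor subunit Itga6 by 2.13 ± 0.48 (edgeR adjusted p = 0.00551). Itga9, a tenascin receptor subunit, rose by 0.78 ± 0.22 (edgeR adjusted p = 0.0228), but was not called by library size alone (adjusted p range over the alternatives 0.0032 to 0.114) or without FasL KO 1, FasL KO 3, wt 1 or wt 3. Cd36, a thrombospondin receptor, was listed at 0. Scaled by library size alone, 4 receptor genes fell, and in DESeq2, in limma-voom and without FasL KO 3 there were 2.

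Targets of YAP and TAZ other than the CCN genes went both ways. Of 20, 15 were tested, 3 rose and 4 fell, against 9.74% called higher and 7.69% called lower over all genes tested. The median of the 15 was 0.03 and lay between −0.12 (library size alone) and 0.25 (without wt 2) under the alternatives. The ectonucleotidase gene Nt5e fell by 3.55 ± 0.24 and the receptor kinase gene Axl fell by 1.33 ± 0.12, and Tgfb2, a TGF-β ligand, rose by 2.37 ± 0.18 and Gadd45a, a DNA damage response gene, by 1.56 ± 0.20 log2 units (largest edgeR adjusted p = 5.58e-05). Ankrd1, a strong YAP target, was listed at 0. Of 8 genes for YAP, TAZ, TEAD and Vgll factors 4 were tested and 0 were called by edgeR, DESeq2 or limma-voom. Their median was 0.24, but −0.30 without FasL KO 1, −0.07 in limma-voom, and 0.02 and 0.01 without wt 2 and wt 3. At an unadjusted edgeR p under 0.05 there were 1 higher and 1 lower. Vgll3 had −0.44 ± 0.16 (edgeR adjusted p = 0.0778) and Vgll4 1.73 ± 0.79 (edgeR adjusted p = 0.169), and Vgll3 was called lower by library size alone and without FasL KO 1.

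Genes of TGF-β ligands, of latency and of early TGF-β response were also split. Of 12, 8 were tested, 2 rose and 2 fell, against 9.74% called higher and 7.69% called lower over all genes tested. The median of the 8 was −0.16, but 0.55 in limma-voom and 0.60 without wt 1. The response gene Pmepa1, which encodes a feedback inhibitor of TGF-β signalling, fell by 0.97 ± 0.11 log2 units. The transcription factor gene Bhlhe40 rose by 1.66 ± 0.20 and the ligand gene Tgfb3 by 1.22 ± 0.16 (largest edgeR adjusted p of these 3 genes 7.89e-05). Pmepa1 was lower in each FasL KO library than in any wt library, at 962 ± 84.5 CPM in FasL KO and 1884 ± 165 CPM in wt (SD, n = 3 each). Bhlhe40 and Tgfb3 were higher in each FasL KO library than in any wt library. Groups did not overlap for 33.3% of all tested genes.

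**Figure D4:**
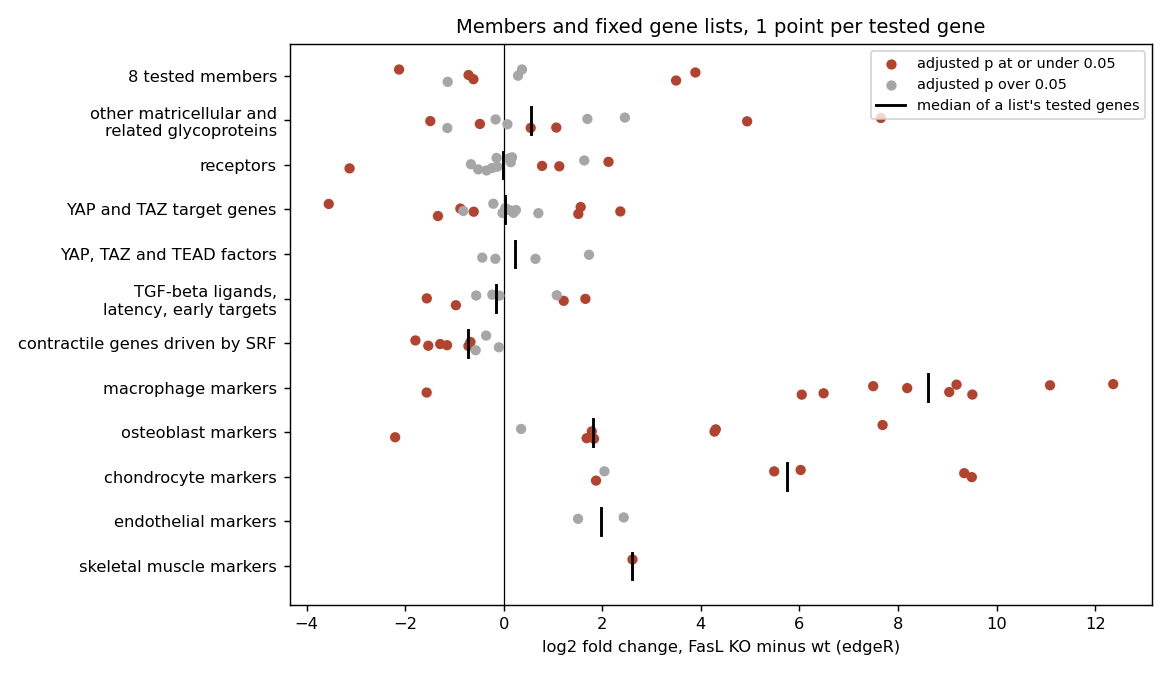
Log2 fold change of FasL KO over wt (horizontal axis) for the 8 tested genes in the top row and for the tested genes of 11 lists below, 1 point per gene, red where the edgeR adjusted p was at or under 0.05, with the median of each list as a black line. Genes of the top row lie on both sides of 0, from −2.12 to 3.89, while macrophage and chondrocyte markers lie mostly above 5 and contractile genes below 0.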

How the data were processed

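The table the authors deposited holds raw read counts by Ensembl gene, in whole numbers without normalization, used here unchanged. Per the labels' protocols the libraries were QuantSeq 3′ mRNA-Seq FWD, read single-end. Per the series' design text reads were trimmed with Cutadapt and aligned with STAR. FastQC, Trim Galore, DESeq2 and mm10 appear in the submitters' processing notes. The sources used here name no counter, strand setting or annotation release. The labels mention no molecular identifiers, so counting limits cover counting error only.

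From 57180 identifiers, 1 row without an identifier being left out, 51883 had a symbol. Genes passed filterByExpr (about 10 counts in 3 libraries), libraries were scaled by TMM, and FasL KO was tested against wt with edgeR 4.0.16 (quasi-likelihood, R 4.3.3), no covariate. The standard error of a log2 fold change is its size over the square root of F. Alternatives used limma 3.58.1 and DESeq2 1.42.0. Within a group no pair of libraries agreed within sampling noise. The fit was tested on simulated data with 50 genes planted at each of 4 fold changes. It recovered 12% of the 1.5-fold, 28% of the 2-fold, 72% of the 4-fold and 86% of the 8-fold changes. Of 108 calls 9 were not planted, and 0 had the wrong sign. Small folds could thus go uncalled.

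The 10 genes and the 11 lists were chosen with earlier results of these data known. All 10 genes are named, with up to 4 called genes per list by adjusted p, or 2 as values where none was called. Of the genes so picked, 1 is not reported here.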

Additional observations from a re-analysis of the deposited data

How the results depend on the processing

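Under 14 alternatives to the edgeR result (other scalings, filters and tests, the replicate block, and each library left out) the same counts of 2 of the 10 genes higher and 3 lower in FasL KO were obtained. Ccn3 ran from 3.73 to 3.94, Postn from 3.08 to 3.91, Thbs1 from −2.28 to −2.01, Ccn1 from −0.87 to −0.58 and Ccn4 from −0.77 to −0.50 on the log2 scale, all of them called each time. Ccn5 (0.13 to 0.31) and Thbs2 (0.19 to 0.50) were called under none. Tnc ran from −1.58 (without wt 3) to 0.15 (without wt 2) with a library left out, reached −2.13 in limma-voom, and could not be tested without FasL KO 2.

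Over all genes, edgeR called 847 higher and 668 lower in FasL KO. With library size alone the median over all genes was −0.14, against 0.02 with TMM, and edgeR called 720 higher and 976 lower, DESeq2 called 920 and 768, and leaving out a library gave 1224 to 1424 calls in all. The labels state no pairing by replicate number, and no sign of one was seen. Deviations of same-numbered libraries correlated at −0.0231, −0.015 and −0.0227, and no library correlated best with its own number. With 3 libraries per group a weak pairing could go unseen. With the replicate block 1359 genes were called, among them 2 of the 10 genes as higher and 3 as lower. The log2 ratio of Ccn3 to Ccn1 plus Ccn2 differed by 4.47 to 4.76 without each library in turn, by 4.59 with a pseudocount of 1 and by 4.60 in the replicate block, where p = 0.25 is the smallest exact p. A denominator of Ccn2 alone was not run because Ccn2 is listed at 0. Depth limits Tnc, and Postn in wt.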

Other observations

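Contractile genes driven by SRF, which share serum and tension as known triggers with Ccn1, were lower in FasL KO: of 12, 9 were tested, 6 fell and 0 rose by edgeR, DESeq2 and limma-voom alike and at an unadjusted edgeR p under 0.05, with a median log2 fold change of −0.72 over the 9. Without FasL KO 1 the median was −1.18 and 6 genes fell, and without any 1 of the other 5 libraries 5 fell. Of all genes tested, edgeR called 7.69% lower and 9.74% higher in FasL KO. Acta2 had 2232 ± 82.6 CPM in FasL KO and 4952 ± 212 CPM in wt, and Tagln 183 ± 18.4 CPM in FasL KO and 633 ± 77.3 CPM in wt (SD, n = 3 each). Cnn1 fell by 1.53 ± 0.17 and Myl9 fell by 0.67 ± 0.11 log2 units (largest edgeR adjusted p of the 4 genes 0.000311). Whether these genes and Thbs1 or Ccn1 share a cause was not tested.

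Most called markers of other cell types and of osteoblasts were higher in FasL KO, Cd14 and Alpl being the 2 that were lower. Over all genes tested, 9.74% were called higher and 7.69% lower. Markers with few or no counts in wt passed the filter only through FasL KO, so their direction was largely built in. Among macrophage markers, C1qb and Cd52 had 334 to 1261 counts per FasL KO library and 0 to 2 per wt library. C1qc and Marco, without a count in wt, were at least 530-fold and 218-fold higher in FasL KO, taking 3 counts over the wt group as the floor. The list's median was 8.61, or 7.63 with such genes at their bound, and 11.6 as fitted without wt 2. Of the osteoblast markers, Col1a1, Col1a2 and Cdh11 rose by 1.83 ± 0.12, 1.68 ± 0.12 and 1.79 ± 0.13 log2 units and Alpl fell by 2.20 ± 0.18, with a median of 1.81 over the list. Of 10 chondrocyte markers 6 were tested and 5 rose, with a median of 5.76: Sox9 rose by 1.87 ± 0.11, Col11a2 by 6.02 ± 0.43 and Col9a2 by 5.49 ± 0.42, and Acan, listed at 0 in wt, at least 65.3-fold. Of 7 endothelial markers the 2 tested, Plvap (2.43 ± 1.25) and Kdr (1.51 ± 1.16), were not called by edgeR, DESeq2 or limma-voom, nor at an unadjusted edgeR p under 0.05, and of 8 skeletal muscle markers the 1 tested, Acta1, rose by 2.59 ± 0.54. The largest edgeR adjusted p of the called genes in this paragraph was 0.00332, for Acta1.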
